A study of Mus musculus with 16 samples.

Results

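Chromatin accessibility at the Mef2a, Mef2c and Mef2d genes was examined in the peak lists of 16 ATAC-seq libraries. ATAC-seq uses a transposase to tag open DNA, so a peak marks an accessible stretch of chromatin. The cells were mouse fetal liver hematopoietic progenitors immortalized with HoxB8 fused to the estrogen receptor and kept growing by β-estradiol. All of them carried this HoxB8 construct and all received a retrovirus that also encodes GFP, for 3 days. The Gata2 -77 enhancer, which lies 77 kb upstream of Gata2, is intact in hi-77+/+ cells and homozygously deleted in hi-77-/- cells. Empty vector went into hi-77+/+ and into hi-77-/- cells, giving the groups hi-77+/+ empty and hi-77-/- empty. The other hi-77-/- cells received either wild-type GATA2 (the GATA2 group) or 9aa-Ins, a GATA2 variant with 9 inserted amino acids (the 9aa-Ins group). There were 4 libraries in every one of the 4 groups. No label names separate lines within a genotype, so a difference between genotypes cannot be told apart from a difference between cell lines. The labels also do not say that libraries of a group came from separate cultures. The study's ATAC-seq methods call those of the hi-77-/- groups biological replicates, and do not describe the hi-77+/+ empty libraries. How separate the cultures were is not given, so p-values measure the spread between these libraries, which may be partly technical. The vector drives GATA2 or 9aa-Ins outside the control of the Gata2 locus.

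The 49000 most significant peaks of each library on chromosomes 1 to 19 and X were merged into 90549 regions, and a region belonged to a Mef2 gene when it lay within 150 kb of the gene's annotated 5′ end or inside the gene. Of these, 73 regions belonged to the 3 genes, with 18 at Mef2a, 13 at Mef2c and 42 at Mef2d. Regions were assigned to the genes by position alone, while the 3 genes were chosen with earlier results of these data known. A rank score from 100 (the first peak of a library) down to just above 0 (the last of the 49000) was given to the best peak in a region, and 0 where there was none. The rank score compares a region with the other peaks of its own library and is not an amount of signal. Regions are named by gene and by the distance of their middle from the 5′ end, with a minus sign for upstream.

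The deposited lists held 50195 to 112267 peaks. These were 76447 to 112267 in hi-77+/+ empty, 64258 to 74703 in hi-77-/- empty, 50195 to 78185 with GATA2 and 70547 to 108020 with 9aa-Ins. Read totals were not used here, so the sequencing depth behind a peak is unknown. The -77 deletion was checked on the full lists in the 2-kb stretch from 76 to 78 kb upstream of Gata2. Peaks covered 1196 to 1552 bp of it in hi-77+/+ empty libraries, and 0 to 853 bp in the 12 hi-77-/- libraries. Coding exons of Gata2, which a retroviral GATA2 sequence shares, were covered to 46.5% to 73.7% in the GATA2 group and 89.9% to 99.6% in the 9aa-Ins group, against 7.64% to 8.75% in hi-77-/- empty and 0% to 32.6% in hi-77+/+ empty. Promoters of all 6 progenitor markers (Kit, Cd34, Myb, Spi1, Ptprc and Runx1) had a peak in every library, and those of 4 of 4 hepatocyte and 2 of 2 endothelial markers had none. The promoter of the B-lineage marker Cd79a had a peak in 3, 4, 0 and 4 libraries of the hi-77+/+ empty, hi-77-/- empty, GATA2 and 9aa-Ins groups. The erythroid markers Alas2 and Hbb-bt, the B-lineage marker Pax5 and the fibroblast marker Pdgfra had none, while the B-lineage marker Ebf1 had a peak in 16 libraries and the fibroblast marker Col1a1 in 15. The part of these cell type markers in the results was not tested.

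MEF2 proteins are MADS-box transcription factors that bind A/T-rich DNA as dimers. Class IIa histone deacetylases hold them in a repressive state, and MAP kinase and calcium signals release or activate them. They are best known from muscle, and in blood Mef2c has roles in B-lymphoid and myeloid development, while Mef2a and Mef2d are expressed more broadly and Mef2d is a fusion partner in B-cell leukemia.

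**Figure D1:**
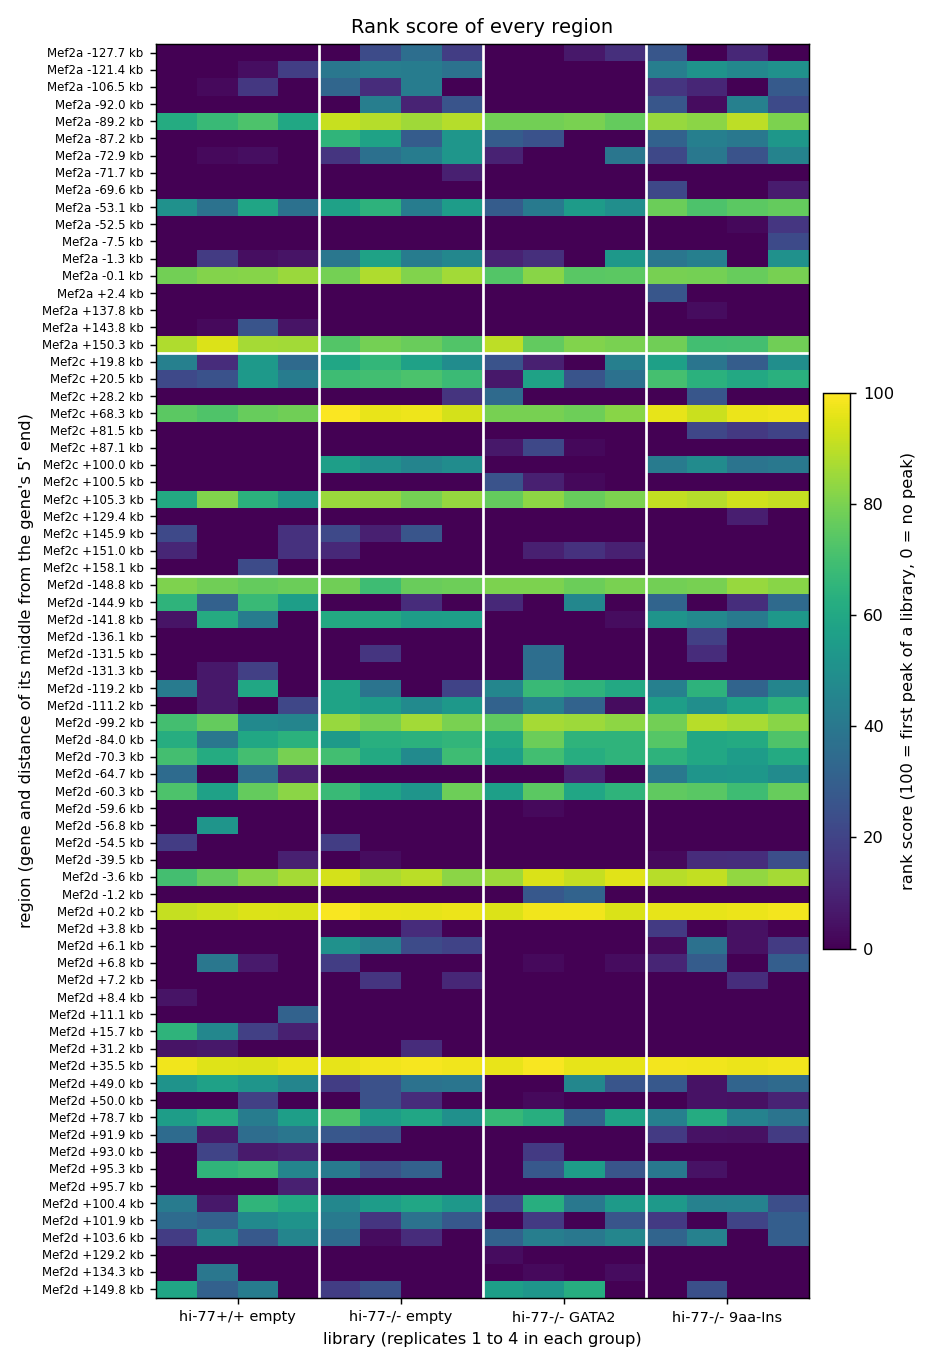
Rank score of all 73 regions (rows, by gene and distance from the 5′ end) in the 16 libraries (columns, replicates 1 to 4 of each group). The colour runs from 0 (no peak among the 49000) to 100 (first peak of a library). Rows such as Mef2c +100 kb are dark in both the hi-77+/+ empty and GATA2 groups and lit in the other two.

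To show the DNA of regions called opened or closed at each gene, 300-base windows centred on the median peak summit are given for 5 of the 9 such regions (GRCm38, + strand, 5′ to 3′, from the RefSeq copy of the assembly). Capitals mark matches, on either strand, to the GATA motif (AGATAA, with AGATAG as a variant, or TGATAA, with TGATAG as a variant), the ETS motif of PU.1 (GAGGAA), the RUNX motif (TGTGGT), the EBF motif (CCCNNGGG) and the MEF2 motif. The windows are chr13:83603920-83604219 in an intron of Mef2c, chr7:67459902-67460201 and chr7:67493918-67494217 upstream of Mef2a, chr3:88148325-88148624 in an intron of Mef2d, and chr3:88157942-88158241 over a coding exon of Mef2d.
Mef2c +100 kb: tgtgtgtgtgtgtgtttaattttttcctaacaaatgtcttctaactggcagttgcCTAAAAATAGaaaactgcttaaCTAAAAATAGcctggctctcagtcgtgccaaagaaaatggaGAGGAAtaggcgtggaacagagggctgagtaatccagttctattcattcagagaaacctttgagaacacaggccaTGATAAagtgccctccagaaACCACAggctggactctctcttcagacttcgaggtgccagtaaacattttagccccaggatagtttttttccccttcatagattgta
Mef2a -87.2 kb: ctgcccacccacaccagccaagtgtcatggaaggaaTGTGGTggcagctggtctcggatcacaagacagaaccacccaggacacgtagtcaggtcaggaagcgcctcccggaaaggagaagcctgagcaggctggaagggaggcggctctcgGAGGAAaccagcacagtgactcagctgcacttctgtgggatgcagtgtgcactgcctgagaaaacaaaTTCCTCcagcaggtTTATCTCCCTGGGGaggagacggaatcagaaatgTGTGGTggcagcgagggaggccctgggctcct
Mef2a -121.4 kb: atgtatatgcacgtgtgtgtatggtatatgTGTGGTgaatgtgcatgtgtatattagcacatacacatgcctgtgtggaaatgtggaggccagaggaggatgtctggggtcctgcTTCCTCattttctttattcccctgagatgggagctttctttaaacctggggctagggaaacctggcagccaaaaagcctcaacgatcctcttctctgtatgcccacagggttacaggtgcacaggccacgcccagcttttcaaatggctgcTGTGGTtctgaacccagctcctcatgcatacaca
Mef2d +6.1 kb: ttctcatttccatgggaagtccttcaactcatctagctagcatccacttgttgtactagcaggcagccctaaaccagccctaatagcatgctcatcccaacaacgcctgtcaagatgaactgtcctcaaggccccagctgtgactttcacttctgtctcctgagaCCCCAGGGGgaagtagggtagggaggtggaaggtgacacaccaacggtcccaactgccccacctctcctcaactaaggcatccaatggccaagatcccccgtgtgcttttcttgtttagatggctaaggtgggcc
Mef2d +15.7 kb: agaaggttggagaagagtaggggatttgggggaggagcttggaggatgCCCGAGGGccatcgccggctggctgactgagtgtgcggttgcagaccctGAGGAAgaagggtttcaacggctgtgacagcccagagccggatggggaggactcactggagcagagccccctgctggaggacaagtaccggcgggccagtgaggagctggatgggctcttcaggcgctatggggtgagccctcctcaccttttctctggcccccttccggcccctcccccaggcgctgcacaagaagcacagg

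The Mef2c +100 kb window held 2 matches to the MEF2 motif, starting at bases 56 and 78, with 1 GAGGAA, 1 TGATAA and 1 TGTGGT. The MEF2 motif was in 544 of all 90549 windows of the same length (0.601%) and in 2 of the 73 (2.74%). The other of these 2 was the window at the Mef2a 5′ end, where the match started at base 131. A GATA motif was in 19 of the 73 windows (26.0%) against 36.6% of all windows, and GAGGAA in 29 (39.7%) against 37.5%. TGTGGT was in 20 (27.4%) against 30.7%, and CCCNNGGG in 11 (15.1%) against 12.7%. Mef2a -87.2 kb held 1 GATA motif, 2 GAGGAA, 2 TGTGGT and 1 CCCNNGGG. Mef2a -121.4 kb held 1 GAGGAA and 2 TGTGGT. Neither Mef2d window held a GATA motif, and Mef2d +6.1 kb held only a pair of overlapping CCCNNGGG matches among the motifs searched. Over the 9 windows of called regions, a GATA motif was in 2, GAGGAA in 6, TGTGGT in 3, CCCNNGGG in 3 and the MEF2 motif in 1. Of the windows not shown, Mef2a -92.0 kb and Mef2d -39.5 kb held only GAGGAA. Mef2d -64.7 kb and Mef2d +91.9 kb held none of the motifs searched. A match is a string of letters and was not tied to binding.

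A region was called opened when a peak was present in 4 of 4 libraries of the first group and in 0 of 4 of the second, and closed in the reverse case. The -77 deletion compares hi-77-/- empty with hi-77+/+ empty, and GATA2 and 9aa-Ins are each compared with hi-77-/- empty. The first 3 comparisons share the hi-77-/- empty libraries, and 9aa-Ins against GATA2 shares its libraries with those of GATA2 and 9aa-Ins. With the -77 deletion, 3 of the 73 regions opened and 1 closed, beside 3.59% and 2.11% of all regions. With GATA2, 0 opened and 3 closed, beside 1.73% and 2.23%. With 9aa-Ins, 1 opened and 0 closed, beside 1.35% and 0.171%. In 9aa-Ins against GATA2, 6 opened and 0 closed, beside 2.97% and 1.47%. The share of the 73 called in either direction was therefore near that of all regions for the deletion (5.48% against 5.70%) and GATA2 (4.11% against 3.96%), and 8.22% against 4.44% between 9aa-Ins and GATA2. The GATA2 count of 3 rose to 6 without GATA2 replicate 4 and to 5 without hi-77-/- empty replicate 4, and the 9aa-Ins count of 1 rose to 2 without 9aa-Ins replicate 1 or without hi-77-/- empty replicate 2 or 4. The presence calls turned on where the lists end: with only the first 24500 peaks the counts were 0, 1, 0 and 0 in the order given, and 2, 1, 0 and 2 where absence was required in the full lists.

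Graded differences were tested with limma on the rank scores of all 90549 regions, with Benjamini-Hochberg adjustment over all of them. With the deletion, 15 of the 73 regions were higher and 3 lower, beside 12.1% and 11.3% of all regions. With GATA2, 0 were higher and 10 lower, beside 4.99% and 6.95%. With 9aa-Ins, 1 was higher and 0 lower, beside 2.92% and 0.893%. In 9aa-Ins against GATA2, 11 were higher and 0 lower (10 and 1 with the replicate block), beside 9.23% and 4.88%. The totals were close to the background, at 24.7% of the 73 against 23.5% of all regions for the deletion and 13.7% against 11.9% for GATA2. The median difference over the 73 was 0 for the deletion and for GATA2, as over all regions. With all deposited peaks the split for the deletion was 6 higher and 8 lower, and without 9aa-Ins replicate 1 the 9aa-Ins count was 3. In the 17 regions with a peak in all 16 libraries the median difference was 5.62 points with the deletion, against 0.0821 over the 21169 such regions of the series. Chromosome medians over such regions ranged from -5.64 to 3.38 in this comparison, with 0.270 on chromosome 7 (Mef2a), 0.00714 on chromosome 13 (Mef2c) and -0.911 on chromosome 3 (Mef2d).

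Summed over a gene's regions and divided by 100, the rank score gave 1 value per gene and library. Mef2a and Mef2c were both higher after the -77 deletion, lower with GATA2 and higher with 9aa-Ins than with GATA2, with no overlap between libraries in any of these comparisons. Mef2d groups overlapped in every comparison.

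For Mef2a the summed scores were 2.79, 3.06, 3.53 and 2.97 in hi-77+/+ empty and 4.94, 5.93, 5.29 and 5.46 in hi-77-/- empty. They were 3.19, 3.17, 2.96 and 3.87 with GATA2 and 5.72, 4.99, 4.81 and 6.10 with 9aa-Ins. The groups thus ordered as hi-77+/+ empty (3.09 ± 0.317, SD, n = 4), GATA2 (3.30 ± 0.393), 9aa-Ins (5.40 ± 0.606) and hi-77-/- empty (5.41 ± 0.414). The difference was 2.32 with the deletion, -2.11 with GATA2 and 2.11 between 9aa-Ins and GATA2, each with a two-sided exact permutation p of 0.0286. The step from GATA2 down to hi-77+/+ empty (0.209, exact permutation p = 0.457) and that between 9aa-Ins and hi-77-/- empty (-0.00258, exact permutation p = 1) were within the spread. With all deposited peaks, on lists of unequal length, the latter was 3.32 (exact permutation p = 0.0286).

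For Mef2c the values were 2.34, 1.91, 2.71 and 2.37 in hi-77+/+ empty and 4.02, 3.75, 3.77 and 3.58 in hi-77-/- empty. With GATA2 they were 2.55, 2.69, 2.00 and 2.52, and with 9aa-Ins 3.56, 3.79, 3.43 and 3.62. Every hi-77-/- empty and 9aa-Ins library lay above every library of the other groups. Group means were 2.33 ± 0.326, 3.78 ± 0.181, 2.44 ± 0.302 and 3.60 ± 0.150 (SD, n = 4) in the same order. The differences were 1.45 with the deletion, -1.34 with GATA2 and 1.16 between 9aa-Ins and GATA2, again with an exact permutation p of 0.0286 each. Those between GATA2 and hi-77+/+ empty (0.106, exact permutation p = 0.629) and between 9aa-Ins and hi-77-/- empty (-0.181, exact permutation p = 0.229) did not exceed the spread. With all deposited peaks the latter was 1.82 (exact permutation p = 0.0857).

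For Mef2d the values were 11.5, 12, 12.6 and 11.2 in hi-77+/+ empty, 12.1, 11, 10.3 and 9.79 in hi-77-/- empty, 8.74, 11.8, 11 and 9.55 with GATA2, and 11.4, 11.7, 10.2 and 11.6 with 9aa-Ins. No order of the 4 groups stood beyond their spread. The differences were -1.06 with the deletion, -0.504 with GATA2, 0.431 with 9aa-Ins and 0.935 between 9aa-Ins and GATA2, with exact permutation p of 0.143, 0.543, 0.543 and 0.257.

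An exact p of 0.0286 is the smallest that 4 against 4 libraries allow, and it was reached by 46.8%, 27.6% and 29.9% of the 20758 protein-coding genes with a region in the deletion, GATA2 and 9aa-Ins against GATA2 comparisons. Adjusted over all genes it was 0.0611, 0.103 and 0.0956, so 0 genes could pass. Groups that did not overlap in the direction of Mef2a and Mef2c were found for 17.5%, 14.9% and 19.7% of genes. In limma over all genes, the alternative test, both genes passed in these 3 comparisons, with adjusted p of 1.40e-06, 2.16e-05 and 2.13e-05 for Mef2a and 2.52e-06, 2.92e-05 and 0.000123 for Mef2c. In the 9aa-Ins comparison limma gave adjusted p of 1 and 0.677, with SE of 0.293 and 0.192 on the differences. Mef2d passed in none (adjusted p 0.137, 0.588, 0.771 and 0.250). A difference at least as large as that of Mef2a was seen in 14.2% of genes for the deletion, 5.61% for GATA2 and 5.64% between 9aa-Ins and GATA2, and as that of Mef2c in 28.3%, 15.0% and 19.1%. With all deposited peaks the deletion difference of Mef2a was 0.793 (exact permutation p = 0.514) and that of Mef2c 0.644 (exact permutation p = 0.0571), while that of Mef2d was -5.92 (exact permutation p = 0.0286). With the first 24500 peaks the differences of Mef2a were 0.512 with the deletion (exact permutation p = 0.0857), -0.510 with GATA2 and 0.510 between 9aa-Ins and GATA2 (exact permutation p = 0.0286 each). With all deposited peaks those between 9aa-Ins and GATA2 were 6.37 for Mef2a, 3.35 for Mef2c (exact permutation p = 0.0286 each) and 7.51 for Mef2d (exact permutation p = 0.0571). The full lists differ in length between the groups, and a longer list can add to a summed score. The part of list length in the values from all deposited peaks was not tested.

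**Figure D2:**
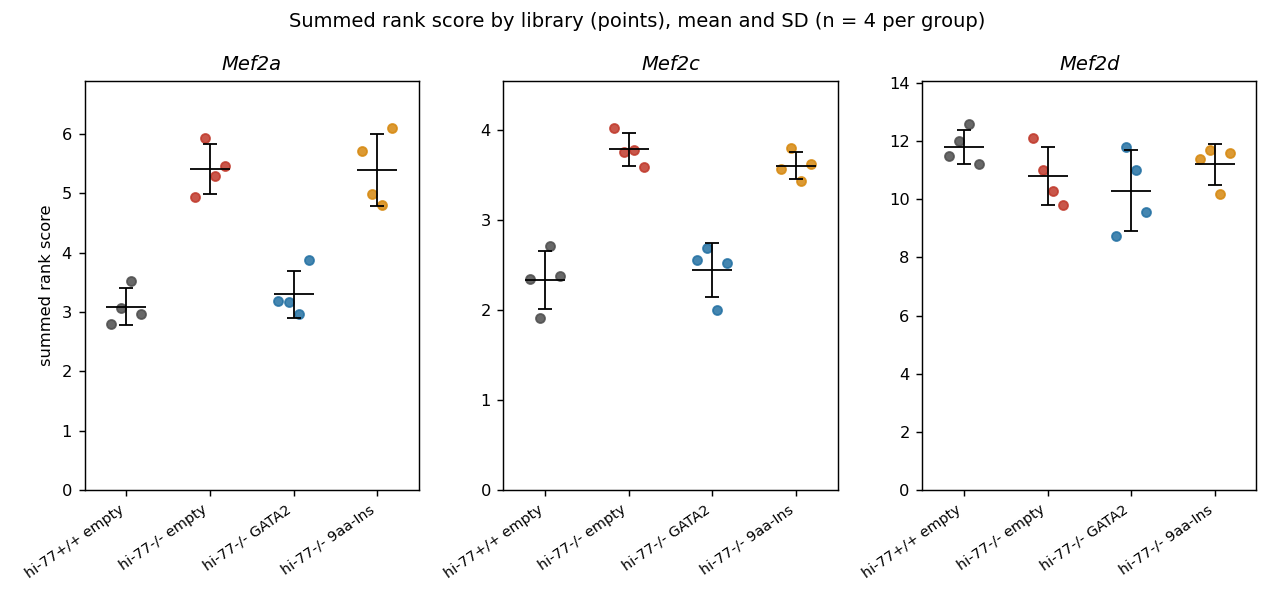
Summed rank score (rank score divided by 100 and summed over the regions of a gene) for Mef2a, Mef2c and Mef2d. Points are libraries, horizontal bars the group mean and vertical bars the SD (n = 4 per group). For Mef2a and Mef2c the hi-77-/- empty and 9aa-Ins points lie above all points of the other 2 groups, and for Mef2d the groups overlap.

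Mef2c (ENSMUSG00000005583.16) lies on chromosome 13 at 83504034 to 83667080, + strand, in GRCm38. All 13 of its regions lay inside the gene and none over the annotated 5′ end. The first ones were at +19.8 kb, which overlaps a RefSeq promoter of Mef2c, and at +20.5 kb, which holds an internal transcript start.

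The best-ranked region, Mef2c +68.3 kb (13: 83571881 to 83572705), also holds an internal transcript start. Its rank scores were 74.8, 72.4, 76.8 and 78.2 in hi-77+/+ empty, 99.3, 96.6, 97.6 and 93.4 in hi-77-/- empty, 79.6, 79.5, 78.1 and 82.3 with GATA2, and 96.2, 91.8, 97.0 and 97.8 with 9aa-Ins. The peak was therefore present in all 16 libraries, at rank 360 to 3213 in hi-77-/- empty and 10693 to 13523 in hi-77+/+ empty. The differences were 21.2 (SE 1.77) with the deletion, -16.9 with GATA2 and 15.8 between 9aa-Ins and GATA2, with limma adjusted p of 3.74e-07, 5.78e-06 and 1.24e-05. With 9aa-Ins against hi-77-/- empty it was -1.02 (limma adjusted p = 1).

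Mef2c +100 kb (13: 83603911 to 83604188), the intronic region with the pair of MEF2 motif matches, had no peak in any hi-77+/+ empty or GATA2 library. Its rank scores were 56.0, 50.1, 45.3 and 48.5 in hi-77-/- empty and 41.6, 48.1, 38.6 and 39.9 with 9aa-Ins. It was called opened with the deletion, closed with GATA2 and opened in 9aa-Ins against GATA2, with limma differences of 50, -50 and 42.0 (SE 4.78; adjusted p 1.22e-06, 1.98e-06 and 1.31e-05). In the full lists a weaker peak overlapped it in 1 hi-77+/+ empty and 1 GATA2 library, so no presence call remained where absence was required there, nor with the first 24500 peaks. The pattern of 0, 4, 0 and 4 libraries, picked out after its values were seen, was shown by 2 of the 73 regions (Mef2c +100 kb and Mef2d +6.1 kb) and by 696 of all 90549 (0.769%).

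At Mef2c +20.5 kb the mean rank score was 35.7 ± 14.9 in hi-77+/+ empty, 69.6 ± 1.46 in hi-77-/- empty, 31.9 ± 21.5 with GATA2 and 64.5 ± 4.34 with 9aa-Ins (SD, n = 4). It was higher with the deletion (33.9, limma adjusted p = 0.00949), lower with GATA2 (-37.7, 0.00801) and higher in 9aa-Ins than GATA2 (32.6, 0.0184). Mef2c +19.8 kb was lower with GATA2 (-38.3, limma adjusted p = 0.0160) and did not pass with the deletion (21.5, 0.138). Mef2c +105.3 kb was higher with the deletion (18.3, limma adjusted p = 0.00314, exact permutation p = 0.0571) and did not pass with GATA2 (-3.93, limma adjusted p = 0.674). Mef2c +81.5 kb had a peak only in 3 libraries with 9aa-Ins. Its difference passed against GATA2 (14.5, limma adjusted p = 0.0197) and did not pass against hi-77-/- empty (14.5, 0.0536). The exact permutation p was 0.143 in both comparisons, where every library set against 9aa-Ins was at 0. The other 7 Mef2c regions passed in no comparison.

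Mef2a (ENSMUSG00000030557.17) lies on chromosome 7 at 67231163 to 67372858, - strand. Of its 18 regions, 13 were intergenic. The region over the 5′ end, Mef2a -0.1 kb (7: 67372165 to 67373769), had mean rank scores of 81.7 ± 2.55 in hi-77+/+ empty, 83.6 ± 4.12 in hi-77-/- empty, 76.2 ± 4.11 with GATA2 and 78.7 ± 1.23 with 9aa-Ins (SD, n = 4). It passed in no comparison, with a limma adjusted p of 0.658 for the deletion and 0.0549 for GATA2 (-7.36), the latter 0.0364 in the fit with the replicate block.

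The best-ranked other region, Mef2a -89.2 kb (7: 67461793 to 67462386), had rank scores of 61.6, 67.8, 72.0 and 59.4 in hi-77+/+ empty and 91.5, 88.8, 85.8 and 89.0 in hi-77-/- empty. With GATA2 they were 78.6, 78.7, 79.8 and 76.2, and with 9aa-Ins 84.7, 82.8, 90.1 and 80.3. It was higher with the deletion by 23.6 (SE 2.69; limma adjusted p = 8.52e-06) and lower with GATA2 (-10.5, limma adjusted p = 0.0153), so that the GATA2 libraries lay between those of both empty groups. The 6.17 points between 9aa-Ins and GATA2 did not pass (limma adjusted p = 0.165).

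At Mef2a -87.2 kb (7: 67459857 to 67460302) no hi-77+/+ empty library had a peak, in the full lists either. The rank scores were 65.3, 57.7, 29.1 and 52.7 in hi-77-/- empty, 29.0, 25.1, 0 and 0 with GATA2, and 31.3, 43.3, 39.9 and 52.8 with 9aa-Ins. It was called opened with the deletion (51.2, limma adjusted p = 0.000300), though not with the first 24500 peaks, and had a lower rank score with GATA2 (-37.7, limma adjusted p = 0.00621) without being closed, since 2 GATA2 libraries kept a peak and all 4 had one in the full lists.

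Mef2a -121.4 kb (7: 67493766 to 67494763) had rank scores of 0, 0, 3.83 and 18.6 in hi-77+/+ empty, 39.6, 42.6, 42.1 and 37.8 in hi-77-/- empty, and 42.7, 51.5, 46.7 and 50.4 with 9aa-Ins. No GATA2 library had a peak among the 49000, and it was called closed with GATA2 (-40.5, limma adjusted p = 4.99e-05) and opened in 9aa-Ins against GATA2 (47.8, 1.11e-05). In the full lists 1 GATA2 library had a peak there, and neither presence call held on those lists, with the first 24500 peaks or with peaks covering 50% of the region. Mef2a -92.0 kb had a peak in 0, 3, 0 and 4 libraries and was opened in 9aa-Ins against GATA2, but its rank score did not pass (24.0, limma adjusted p = 0.0757). This presence call was lost on the full lists, where 3 hi-77+/+ empty and 1 GATA2 library had a peak, and with the first 24500 peaks, peaks narrower than 1 kb or tied peaks sharing a rank.

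Besides these, Mef2a -1.3 kb (39.8, limma adjusted p = 0.0174) and Mef2a -72.9 kb (35.3, 0.0102) were higher with the deletion, and Mef2a -53.1 kb was higher in 9aa-Ins than GATA2 (31.5, 0.00231). The region at +150.3 kb, over the start of the neighbouring gene Lysmd4, was lower with the deletion (-13.4, limma adjusted p = 0.00466). Of all 18 Mef2a regions, 5 were higher and 1 lower with the deletion, 0 higher and 3 lower with GATA2, 0 and 0 with 9aa-Ins, and 3 higher and 0 lower between 9aa-Ins and GATA2. Called in either direction were 33.3% of them against 23.5% of all regions for the deletion, and 16.7% against 11.9% for GATA2.

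**Figure D3:**
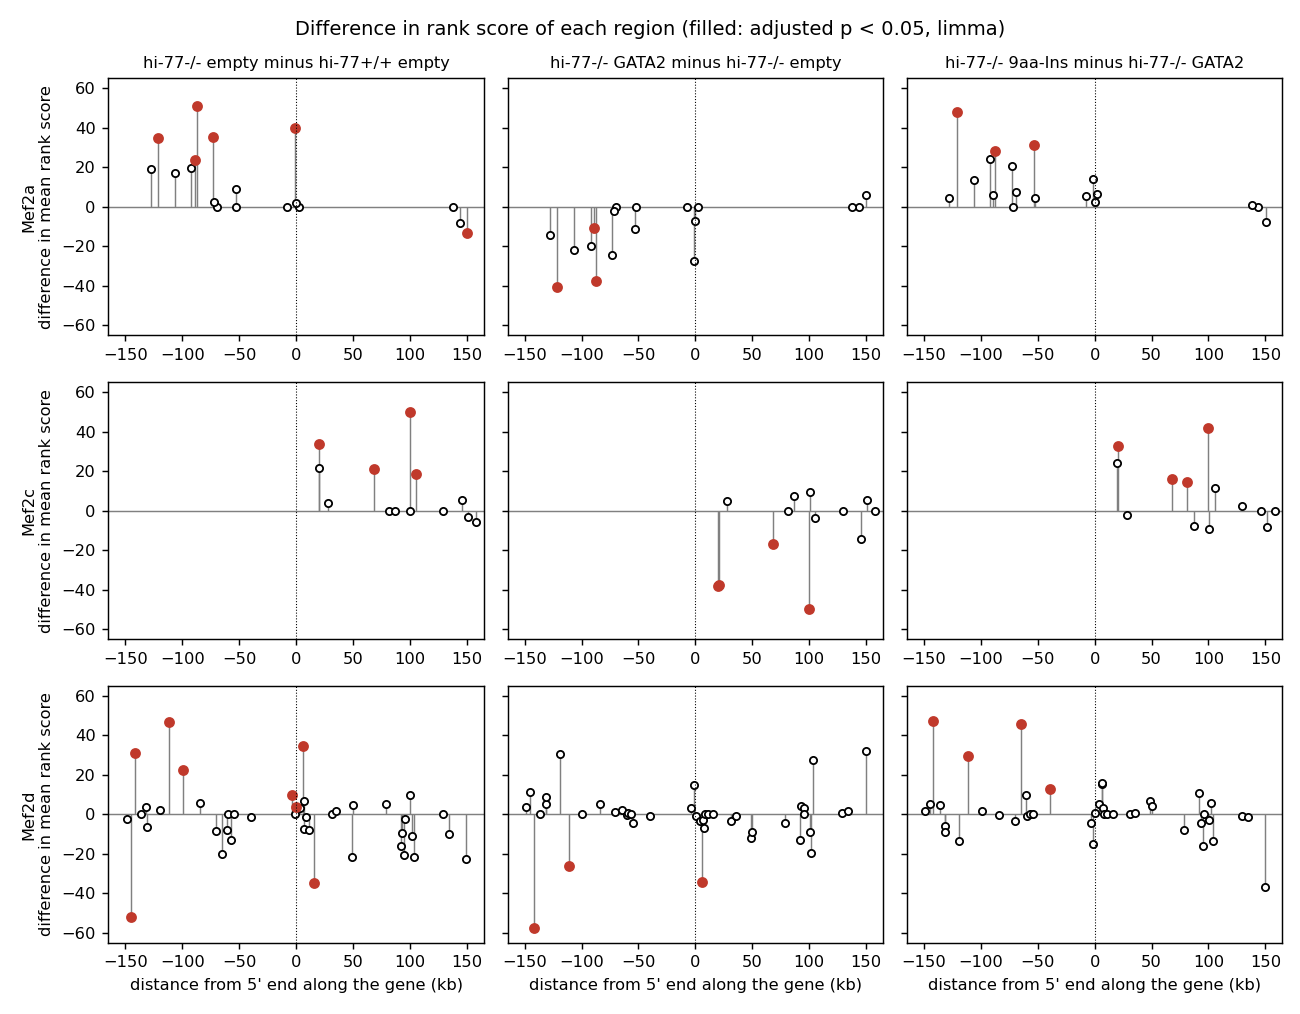
Difference in mean rank score (vertical axis, points from -65 to 65) of each region against its distance from the gene's 5′ end along the gene (horizontal axis, kb), for 3 comparisons (columns) and 3 genes (rows). Filled points passed limma (adjusted p below 0.05). At Mef2a the filled points of the deletion lie upstream except that at Lysmd4, and at Mef2c they lie inside the gene.

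Mef2d (ENSMUSG00000001419.17) lies on chromosome 3 at 88142372 to 88172086, + strand, in a gene-dense stretch. Of its 42 regions, 14 had the 5′ end of Mef2d as the nearest protein-coding 5′ end, and the others lay nearer to genes such as Bcan, Gpatch4, Ttc24, Iqgap3 and Rhbg. The region over the 5′ end, Mef2d +0.2 kb (3: 88141490 to 88143671), was near the top of every list. Its rank scores were 91.4, 92.9, 94.7 and 94.2 in hi-77+/+ empty, 99.2, 96.5, 96.2 and 97.0 in hi-77-/- empty, 94.8, 97.8, 97.7 and 94.4 with GATA2, and 96.4, 96.1, 96.9 and 98.4 with 9aa-Ins. It was 3.92 points higher with the deletion (SE 1.15; limma adjusted p = 0.0192) and passed in no other comparison. The best-ranked other region, Mef2d +35.5 kb (3: 88177176 to 88178505), had means of 96.0 to 97.8 in the 4 groups and passed in none.

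Mef2d +6.1 kb (3: 88148301 to 88148734), in an intron, had no peak in hi-77+/+ empty or GATA2 libraries, in the full lists either. Its rank scores were 50.7, 43.8, 22.8 and 20.2 in hi-77-/- empty and 2.42, 37.4, 4.39 and 17.4 with 9aa-Ins. It was called opened with the deletion (34.4, limma adjusted p = 0.00366), closed with GATA2 (-34.4, 0.00624) and opened in 9aa-Ins against GATA2, where the rank score did not pass (15.4, 0.249). All 3 presence calls were lost with the first 24500 peaks and with peaks covering 50% of the region, and that of 9aa-Ins against GATA2 also with tied peaks sharing a rank. The 9aa-Ins libraries were uneven, with 2 of them near the end of the list.

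Mef2d +15.7 kb (3: 88158000 to 88158190), over a coding exon, went the other way. Its rank scores were 65.2, 46.4, 19 and 8.94 in hi-77+/+ empty and 0 in the 12 hi-77-/- libraries, so it was called closed with the deletion (-34.9, limma adjusted p = 0.00678). In the full lists 1 hi-77-/- empty and 3 9aa-Ins libraries had a weaker peak there, and the presence call was lost on the full lists, with the first 24500 peaks, with peaks narrower than 1 kb and with tied peaks sharing a rank. A presence call in 9aa-Ins against hi-77-/- empty was made at Mef2d -64.7 kb alone, in an intron of Ttc24, where the rank scores were 35.1, 0, 35.7 and 8.95 in hi-77+/+ empty, 0 in hi-77-/- empty, 0, 0, 9.18 and 0 with GATA2, and 40.1, 52.0, 52.9 and 48.4 with 9aa-Ins. This difference of 48.3 was also the 1 call by limma in that comparison (SE 7.28; adjusted p = 0.000744), and 3 hi-77-/- empty libraries had a weaker peak there in the full lists, on which the presence call was lost, as with the first 24500 peaks. Mef2d -39.5 kb and Mef2d +91.9 kb were opened in 9aa-Ins against GATA2, with differences of 13.1 (limma adjusted p = 0.0426, and 0.0509 with the replicate block) and 11 (0.441). Both presence calls were lost with the first 24500 peaks and with tied peaks sharing a rank, and that at +91.9 kb also on the full lists and with peaks covering 50% of the region.

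Farther upstream, Mef2d -141.8 kb, 0.4 kb from the 5′ end of Bcan, fell from a mean of 58.4 to 0.838 with GATA2 (-57.5, limma adjusted p = 0.000893). It was higher with the deletion (31.2, limma adjusted p = 0.0359, exact permutation p = 0.143) and in 9aa-Ins than GATA2 (47.4, limma adjusted p = 0.00399). Mef2d -111.2 kb, 3.5 kb from the 5′ end of Hapln2, was higher with the deletion (46.7, limma adjusted p = 0.000279). It was lower with GATA2 (-26.3, limma adjusted p = 0.0329, and 0.0659 with the replicate block) and higher in 9aa-Ins than GATA2 (29.6, 0.0145). Mef2d -144.9 kb, over a coding exon of Bcan, was lower with the deletion (-51.9, limma adjusted p = 0.00212). Higher with the deletion were Mef2d -99.2 kb, over a transcript start of Gpatch4 (22.6, limma adjusted p = 0.00631), and Mef2d -3.6 kb. The latter differed by 9.68 (limma adjusted p = 0.0409, and 0.0630 with the replicate block). Over the 42 regions, 6 were higher and 2 lower with the deletion, 0 higher and 3 lower with GATA2, 1 higher and 0 lower with 9aa-Ins, and 4 higher and 0 lower between 9aa-Ins and GATA2. The shares called were below those of all regions for the deletion (19% against 23.5%), GATA2 (7.14% against 11.9%) and 9aa-Ins (2.38% against 3.81%).

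**Figure D4:**
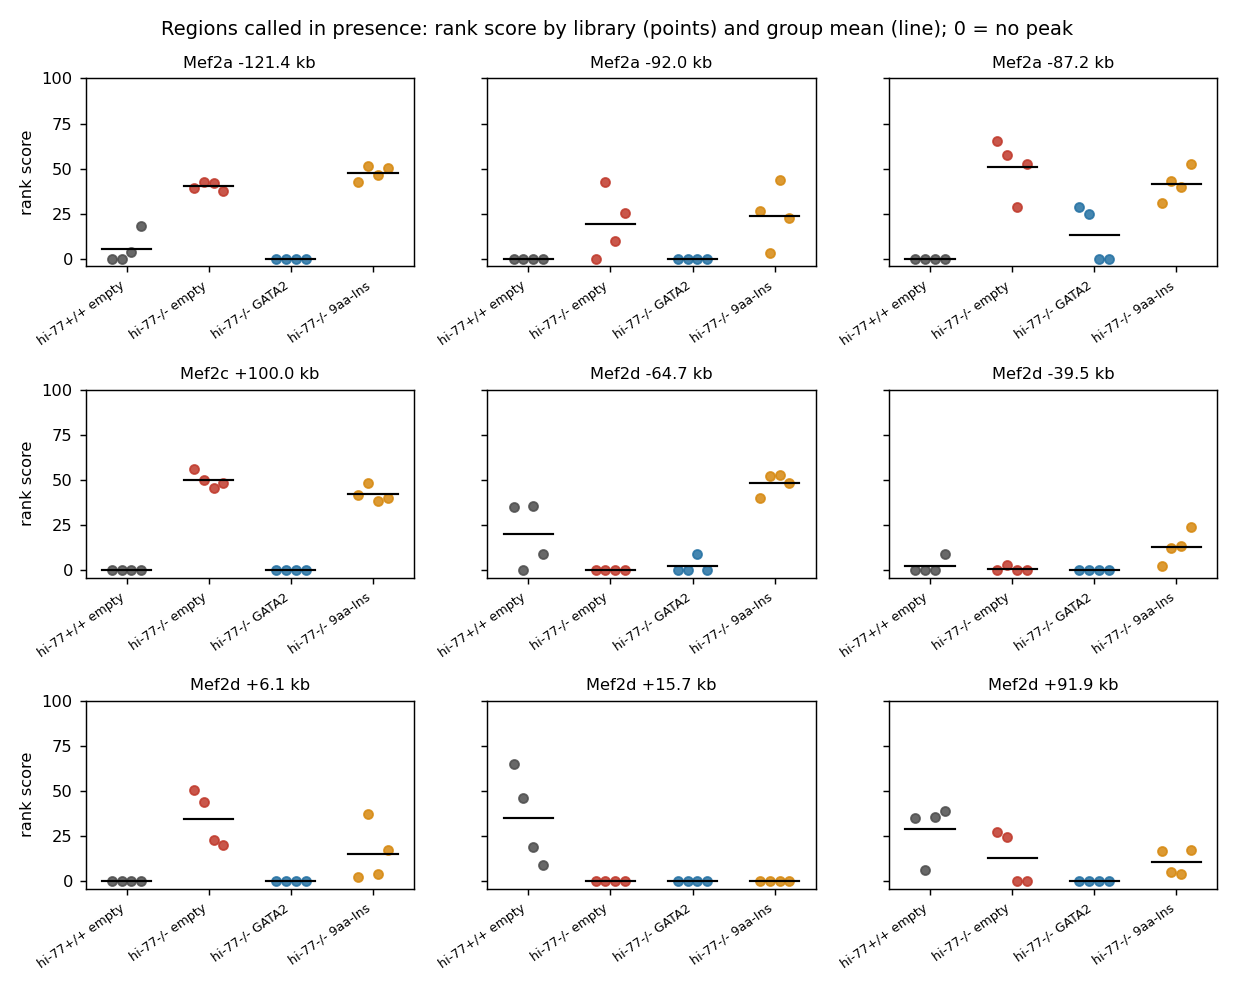
Rank score by library (points) and group mean (line) for the 9 regions called opened or closed in presence, with 0 for no peak among the 49000. Mef2c +100 kb and Mef2d +6.1 kb have all hi-77+/+ empty and GATA2 points at 0, and Mef2d +15.7 kb has points above 0 only in hi-77+/+ empty.

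The pathway around the family was read with the same window and the limma test of summed scores over all genes. Each sum covers all regions of a window, whichever gene lies nearest, from 11 regions (Mapk7) to 63 (Nr4a1). The 12 genes were the family member Mef2b, the repressors Hdac4, Hdac5, Hdac7, Hdac9 and Cabin1, the activators Mapk7, Mapk14 and Ep300, and the targets Nr4a1, Klf2 and Jun. With the deletion 7 genes were higher and 4 lower, beside 20.8% and 33.7% of all genes. With GATA2 1 was higher and 5 lower, beside 13.1% and 15.8%. With 9aa-Ins 3 were higher and 0 lower, beside 6.99% and 1.49%, and between 9aa-Ins and GATA2 5 were higher and 0 lower, beside 20.4% and 10.2%. The median difference of the 12 genes was 1.19 with the deletion, against -0.146 over all genes.

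Among the class IIa histone deacetylases that bind and repress MEF2 proteins, Hdac4, Hdac5, Hdac7 and Hdac9 were all higher with the deletion (1.30, 1.92, 2.14 and 1.08, limma adjusted p 0.000617, 0.00192, 0.000335 and 0.0261). Hdac4 (-1.16, limma adjusted p = 0.00388) and Hdac7 (-1.93, 0.00228) were lower with GATA2, while Hdac5 (0.507, 0.485) and Hdac9 (-0.00246, 1) did not pass. Hdac4 had mean summed scores of 4.10, 5.40, 4.24 and 7.24 in the order of the groups, and was higher with 9aa-Ins than in hi-77-/- empty (1.84, limma adjusted p = 0.000435). Mapk14, a kinase that activates MEF2 proteins, was also higher with 9aa-Ins (2.37, limma adjusted p = 0.000403). The kinase Mapk7 was higher both with 9aa-Ins (0.849, limma adjusted p = 0.0278) and with GATA2 (0.799, 0.0134), and 9aa-Ins and GATA2 differed by 0.0496 (0.919). Mef2b (-3.79, limma adjusted p = 1.02e-07) and Cabin1, a calcium-regulated corepressor (-2.56, 3.14e-07), were lower with the deletion. The targets differed among themselves: Nr4a1 was higher (3.91, limma adjusted p = 1.32e-05) and Klf2 lower (-1.92, 0.00405) with the deletion, both were lower with GATA2, and Jun passed with GATA2 (-0.967, 0.0355) and not with the deletion (0.412, 0.317).

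Over the 16 libraries the summed scores of Mef2a and Mef2c had a Pearson r of 0.909, and those of Mef2d an r of -0.0567 with Mef2a and -2.74e-05 with Mef2c. All these values share the same libraries and lists, and r is given as a description. Among 17921 genes with at least 5 regions outside the 3 windows, Sec16a (r = 0.978), Tmem176b and Tmem176a (0.963 each, with the same regions), Aoc1 (0.959) and Sh3bp4 (0.954) were most like Mef2a. Ms4a13 (r = 0.956), Mex3b (0.955), BC049762 and Clk4 (0.955 each) and Ms4a12 (0.955) were most like Mef2c. BC049762 and Clk4 both lie on chromosome 11 with 14 regions and the same group means, and Ms4a13 and Ms4a12 both lie on chromosome 19. For Mef2d the closest were Cdh3 (r = 0.810), Trim38 (0.806), Srp72 (0.789), Marcksl1 (0.786) and Slc17a2 (0.784). Trim38 and Slc17a2 both lie on chromosome 13.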

How the data were processed

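ATAC-seq was performed on 16 libraries in 4 groups of 4, which were taken from the labels. Per the labels and the study's methods the authors trimmed reads (Trim Galore 0.4.1), aligned them to mm10 (Bowtie2 2.2.5), removed duplicates (Picard 2.26.0) and called peaks per library (MACS2, without a local background). The deposited lists give each peak a score, a fold enrichment (a ratio to the library's background), −log10 p, −log10 q and a summit. The labels describe sorting of GFP-positive cells. Replicates were not pooled.

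Peaks on chromosomes 1 to 19 and X were ordered by deposited −log10 p, then fold enrichment, then position, and the first 49000 were kept, so that lists had equal length. Groups of 2407 to 9094 tied peaks straddled the end of the lists, where position decided which entered. Peaks overlapping by at least 1 bp were merged. Genes were protein-coding genes of GENCODE M21. Rank scores were fitted with limma 3.58.1 in R 4.3.3 (trend, robust, 16 libraries in 1 fit), and an exact permutation test (two-sided) was applied to summed scores, both adjusted by Benjamini-Hochberg over all regions or genes at 0.05. To order the levels, GATA2 and 9aa-Ins were also set against hi-77+/+ empty. The limma fit and the smallest exact p were tested on simulated scores without absent peaks. The merging, ranking and presence calls were not tested in this way. Alternatives were all deposited peaks, the first 24500 peaks, peaks narrower than 1 kb (48916 per library), peaks covering 50% of a region, a 100-kb window, each library left out, limma for summed scores, relaxed presence calls (3 of 4 against 1 of 4), absence in the full lists and a replicate block. After the data were seen, 2 were added: tied peaks sharing their mean rank, and only regions nearest to a member's 5′ end. The named regions were those over a 5′ end, the best-ranked other region of each gene and every region called in presence. Other regions past the limma threshold are also given, chosen after their values were seen. Not every comparison in which a region passed is described. The members, lists and tests were chosen with earlier results of these data known. Some of the cell type markers examined are not reported here.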

Additional observations from a re-analysis of the deposited data

Results flagged for a closer look

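In 6 of 54 groups of 4 libraries checked, 1 library lay farther from the others than Dixon's 95% limit, where chance gives about 1 in 20 for groups without ties. In 3 of the 6 the other 3 libraries were at 0, so a single peak passes the limit by construction and that rate does not apply. The summed score of Mef2d was lowest in 9aa-Ins replicate 3 (10.2), as was the rank score of Mef2a -0.1 kb (76.8). Mef2d -64.7 kb had a peak in GATA2 replicate 3 alone of its group (9.18). Mef2d -39.5 kb had a peak in hi-77+/+ empty replicate 4 (8.95) and in hi-77-/- empty replicate 2 (3.19), each alone of its group. Mef2d +91.9 kb was lowest in hi-77+/+ empty replicate 2 (6.54).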

How the results depend on the processing

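No summed score could pass the adjusted exact test, so its side of the threshold says nothing about stability. Counts below are in the order deletion, GATA2, 9aa-Ins and 9aa-Ins against GATA2, and the cause of each change was not tested beyond what the setting itself removes or adds. Presence calls, 4, 3, 1 and 6, became 0, 1, 0 and 0 with the first 24500 peaks, 10, 10, 6 and 15 with the relaxed call, and 2, 1, 0 and 2 with absence in the full lists. For GATA2 they became 5 with all deposited peaks. For 9aa-Ins they became 4 with all peaks, 2 with peaks narrower than 1 kb or covering 50% of a region, and 0 for regions nearest to a member's 5′ end. Rank score calls, 18, 10, 1 and 11, became 9, 5, 1 and 3 with the first 24500 peaks. They became 11 (deletion) and 4 (9aa-Ins) with peaks covering 50%, 6 (9aa-Ins) and 26 (9aa-Ins against GATA2) with all peaks, 2 (9aa-Ins) with peaks narrower than 1 kb, and 0 (9aa-Ins) and 7 (9aa-Ins against GATA2) for the nearest regions.

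Summed score differences turned direction where they were small. For Mef2d this was with the first 24500 peaks (0.0726, 0.288 and -0.135 for the deletion, GATA2 and 9aa-Ins against GATA2) and for the nearest regions (-0.212, 9aa-Ins). For 9aa-Ins, Mef2a became 3.32 with all peaks (exact permutation p = 0.0286), 0.000500 with the first 24500 and 0.691 with peaks covering 50%. It became 0.118 within 100 kb and 0.00303 for the nearest regions. Mef2c became 1.82, 0.0208 and 0.0337 with all peaks, narrow peaks and peaks covering 50%. Limma over all genes passed where the exact test could not, with and without the replicate block, for Mef2a (2.32, -2.11 and 2.11) and Mef2c (1.45, -1.34 and 1.16).

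With 1 library left out, presence calls ranged from 4 to 6, 3 to 6, 1 to 2 and 6 to 9, and rank score calls from 15 to 19, 8 to 13, 1 to 3 and 8 to 13. Summed differences ranged from 2.14 to 2.47, -2.30 to -1.93, -0.234 to 0.196 and 1.88 to 2.31 for Mef2a, from 1.31 to 1.57, -1.42 to -1.20, -0.248 to -0.101 and 1.01 to 1.24 for Mef2c, and from -1.48 to -0.728, -1.02 to 0.00599, 0.104 to 0.859 and 0.425 to 1.46 for Mef2d. The GATA2 value of Mef2d turned only without GATA2 replicate 1.

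Replicate numbers did not pair the libraries in the deletion, GATA2 and 9aa-Ins comparisons. Correlations of same-numbered libraries were -0.0298 to 0.0313 there, and 1, 1 and 2 of 8 libraries were closest to their own number. In 9aa-Ins against GATA2 same-numbered libraries were more alike, at 0.0156 to 0.0759 against -0.0493 to 0.0284 for other pairs. In that comparison 5 of 8 libraries were closest to their own number, and the reason was not tested. With the replicate block the rank score calls were 17, 10, 1 and 11. Among the last 11, Mef2d -39.5 kb was lost (limma adjusted p = 0.0509) and Mef2d +149.8 kb was gained as lower (-36.8, 0.0327). Depth is unknown, so absence of a peak is absence from a list.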
